A study of Drosophila melanogaster with 4 samples.

Results

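Narrow, strong sites of acetylated lysine 27 on histone H3 (H3K27ac) were described in nuclei from adult fruit fly heads, as the 300 highest-scoring regions among those under 4000 bp wide. H3K27ac was profiled by ChIP-seq, in which crosslinked chromatin is precipitated with an antibody (here from Active Motif) and sequenced. There were 2 ChIP libraries of the wild-type strain Oregon-R-modENCODE, at mixed adult stage. As background there were 2 input libraries of the same strain and stage. Each ChIP replicate has its own list of enrichment clusters with a score from the authors, 5898 clusters in replicate 1 and 6056 in replicate 2. The list for the replicate set holds 6949. The labels are silent on whether separate collections of flies were used, so the differences between the replicates may be technical.

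Pairing every replicate 1 cluster with the replicate 2 cluster of greatest overlap in bases gave 5298 pairs on the 5 major arms (X, 2L, 2R, 3L and 3R). Of these, 2738 were narrow, with a width under 4000 bp in both replicates. The 300 narrow pairs with the highest mean score were taken as the strong narrow clusters and are called members; the remaining 2438 are called the other narrow pairs. Members were thus chosen by score and width in both replicates, and these values are given only as a description. Position and spacing were not used to choose them. All regions come from the same pair of libraries and are not replicates, so no test between the sets was made. Intervals on shares are 95% Wilson intervals and cover counting error only. Read depth per library is unknown.

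H3K27ac is placed by the acetyltransferase CBP and its relatives on nucleosomes beside active promoters and enhancers. The same lysine can instead carry the methylation set by Polycomb complexes, which goes with silent genes. Toward the centromere, fly chromosome arms pass into heterochromatin, which is rich in repeats and in H3K9 methylation, yet holds active genes. Genes and sequence at the regions below were not assigned, because a genome or annotation of release 5, on which the files' positions stand, was not used here. Whether a region is a promoter or an enhancer, or bears on the identity of the tissue, was for the same reason not analysed here.

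Members scored 1.00 to 1.99 in replicate 1 (median 1.28) and 0.96 to 2.09 in replicate 2 (median 1.26). The other narrow pairs scored 0.10 to 1.33 (median 0.68) and 0.06 to 1.25 (median 0.64). The score is on a log2 scale, so the median member lay above the median other pair by a factor of 1.52 on the linear scale in replicate 1 and 1.54 in replicate 2. The members had the highest mean scores of the narrow pairs by choice, with no adjustment for width, but did not head the lists. Among all clusters of the 5 arms, whatever their width, the median member stood at percentile 81.3 of the scores in replicate 1 and 81.6 in replicate 2. The lowest-placed member stood at percentile 62.8 and 62.7. Together the members covered 950 kb in replicate 1 and 932 kb in replicate 2, which is 3.50% and 3.38% of the sequence under clusters on these arms.

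**Figure D1:**
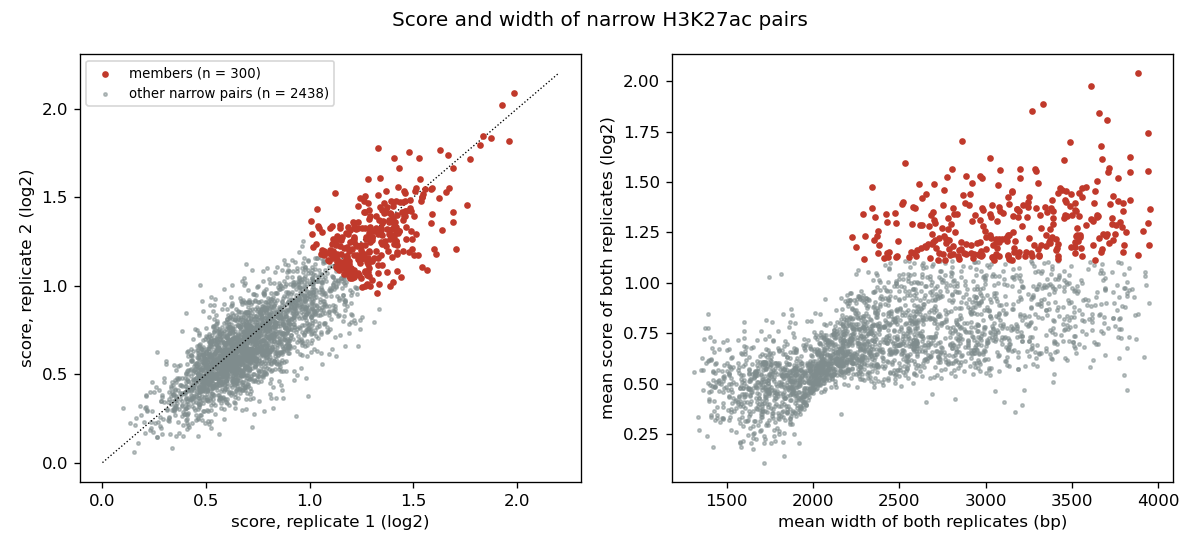
Scores (log2) of narrow pairs in replicate 1 against replicate 2 on the left, with a dotted line of equal scores, and mean score against mean width in bp on the right, for the 300 members and the 2438 other narrow pairs. The members begin at a mean score of 1.11, and none has a mean width under 2000 bp.

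The limit between members and other pairs was not sharp. The 3 lowest members had scores of 1.09 and 1.14 (2L from 20732953 to 20736515), 1.14 and 1.09 (3R from 16965713 to 16968422), and 1.17 and 1.06 (X from 14718073 to 14720952), each given for replicate 1 and then replicate 2. The 3 pairs just outside had 1.11 and 1.11 (X from 9093669 to 9096801), 1.17 and 1.05 (3L from 7490404 to 7492850), and 0.97 and 1.25 (X from 1409237 to 1412086). These 6 pairs overlapped in both replicates. The pooled SD of a member's score between replicates was 0.11, and 126 members lay within that distance above the limit, with 140 other pairs within it below. That SD is of the score in 1 replicate. The mean of both, on which the limit is set, varies less, so these counts are generous. Ranked by 1 replicate alone, 255 of the 300 members were among the 300 highest of replicate 1 and 264 among those of replicate 2. In both were 220 (73.3%). The score of each replicate is part of the mean that chose the members, so these overlaps are favoured by the choice.

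The 10 highest members comprised 5 of the X, 4 of 2R and 1 of 3L, and 4 of the 10 were within 2 Mb of a centromere end. The first was on the X from 16188882 to 16192679, with scores of 1.99 in replicate 1 and 2.09 in replicate 2 and widths of 3969 and 3798 bp. The second was on 2R from 7337961 to 7341532, with scores of 1.93 and 2.02 and widths of 3572 and 3643 bp. These 2 had different surroundings. The X member had another cluster 4570 bp away in replicate 1 and 235 bp away in replicate 2. The 2R member had its nearest neighbour 6319 and 6243 bp away. On its other side the next cluster was 137498 bp away in replicate 1 and 47541 bp away in replicate 2. The third, on the X from 17749938 to 17753081, scored 1.96 and 1.82. The SD between replicates of these 3 was 0.07, 0.06 and 0.10. The X member from 16188882 had the highest score of these 3 in both replicates. The 2R member and the X member from 17749938 changed order between the replicates, so the order between them is not resolved.

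The fourth and seventh members stood alone near the centromere end of 2R. The fourth, from 976690 to 979931, scored 1.88 and 1.83 and had its nearest neighbour 28174 bp away in replicate 1 and 28150 bp in replicate 2. The seventh, from 433276 to 437181, scored 1.77 and 1.72 and stood 28438 and 28492 bp from the next cluster. Both had 0% of the 10 kb on either side under other clusters, in both replicates. The sixth, on 3L from 22856154 to 22859814 (scores 1.82 and 1.80), also lay within 2 Mb of the centromere end but had a neighbour 226 and 100 bp away. In the replicate-set list it was part of a cluster of 11112 bp. The remaining 4 of the first 10 were the X from 11016921 to 11020366 (1.84 ± 0.01, SD, n = 2), the X from 22404514 to 22407353 (1.70 ± 0.05), the X from 20051595 to 20054997 (1.70 ± 0.10) and 2R from 2100787 to 2104394 (1.68 ± 0.02).

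Members were wider than the other narrow pairs, as a description of what chose them. The median width was 3136 ± 57 bp for members and 2250 ± 21 bp for the other narrow pairs (SD, n = 2 replicates, as for all medians given with ± below). Among narrow pairs, width and score had a Spearman's rho of 0.72 in replicate 1 and 0.73 in replicate 2, and the share of members grew with width. None of the 711 narrow pairs with a mean width under 2000 bp was a member. Of those from 2000 to 2500 bp, 24 of 836 (2.87%) were members. From 2500 to 3000 bp it was 93 of 618 (15.0%), from 3000 to 3500 bp 112 of 393 (28.5%), and from 3500 bp up to the limit 71 of 180 (39.4%). Within the members the relation of width to score was weaker, with a rho of 0.26 in each replicate. The narrowest member lay on the X from 6717348 to 6719514, with widths of 2289 and 2167 bp and scores of 1.37 and 1.08. The next 4 were 2R from 2888710 to 2890914, the X from 3773928 to 3776186, 3R from 25631649 to 25633869 and the X from 12987353 to 12989614, at mean widths of 2252 to 2303 bp. Their scores were 1.18 ± 0.09, 1.34 ± 0.10, 1.12 ± 0.11 and 1.23 ± 0.04.

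The borders of members were placed more alike in the 2 replicates than those of the other narrow pairs. The starts of a member differed between replicates by a median of 66 bp and its ends by 70 bp, against 127 and 126 bp for the other narrow pairs. Both borders fell within 100 bp of each other for 123 of 300 members (41.0%, 35.6 to 46.6), against 537 of 2438 other pairs (22.0%, 20.4 to 23.7). Among pairs with mean widths of 3000 bp or more the median border difference was 73.5 bp for members and 138 bp for other pairs. On the X it was 102 bp for members and 198 bp for other pairs, and on the autosome arms 61 and 119 bp. Read depth and its part in how exactly a border is placed were not tested.

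**Figure D2:**
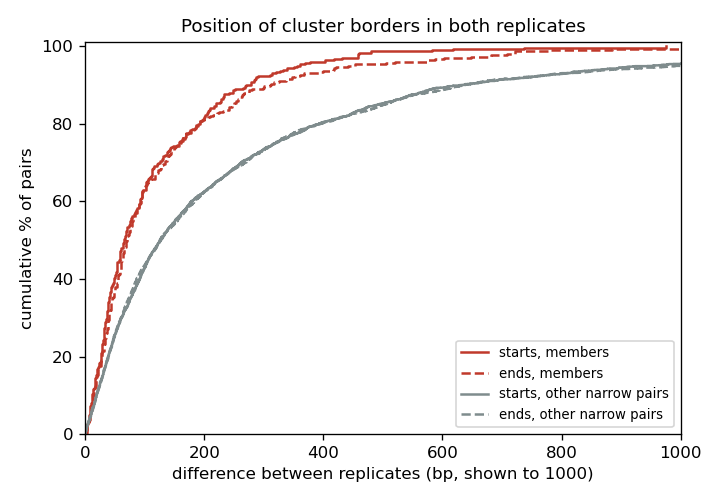
Cumulative percentage of pairs by the difference in bp between replicates of their starts (solid) and ends (dashed), for members and for the other narrow pairs. The member curves rise faster, with medians of 66 and 70 bp against 127 and 126 bp.

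The X held 77 of the 300 members (25.7%, 21.1 to 30.9), against 354 of 2438 other narrow pairs (14.5%, 13.2 to 16), and it makes up 18.8% of the sequence of the 5 arms. The arm was not used to choose members. 3R and 2L lay the other way, with 54 members (18.0%) against 631 other pairs (25.9%) on 3R and 44 (14.7%) against 459 (18.8%) on 2L. On 2R there were 64 members (21.3%) against 496 other pairs (20.3%), and on 3L 61 (20.3%) against 498 (20.4%), so these arms held members and other pairs alike in share. Put per arm, members were 17.9% (14.5 to 21.8) of the narrow pairs of the X, 11.4% of 2R, 10.9% of 3L, 8.75% of 2L and 7.88% (6.09 to 10.1) of 3R. The density of members was 3.43 per Mb on the X, against 3.03 (2R), 2.49 (3L), 1.94 (3R) and 1.91 (2L) per Mb on the autosome arms.

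Scores of all narrow pairs were higher on the X, which bears on how many of its pairs pass a limit set over all arms. The median score of narrow pairs on the X was 0.80 in replicate 1 and 0.83 in replicate 2, against 0.68 to 0.71 and 0.64 to 0.67 on the autosome arms. Ranked by the score relative to the median of the same arm, the X held 17.3% of the 300 highest and 15.5% of the other narrow pairs. The difference between the sets was much smaller on that ranking than on the ranking over all arms. Members of the X themselves had a median score of 1.28 in replicate 1, against 1.28 to 1.30 on the autosome arms, and in replicate 2 they had 1.29 against 1.23 to 1.26. They were somewhat narrower, at 3007 ± 68 bp against 3163 ± 54 bp for members of the autosome arms. In the narrowest class with members, from 2000 to 2500 bp, 11 of 24 members (45.8%) were on the X, against 108 of 812 other pairs (13.3%). The shares were 24.7% and 14.1% from 2500 to 3000 bp, and 27.7% and 14.9% from 3000 to 3500 bp. In the widest class, from 3500 to 4000 bp, they were closer, at 16.9% and 12.8%. The sex of the flies is not in the labels, so signal from the X of males and of females cannot be told apart.

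**Figure D3:**
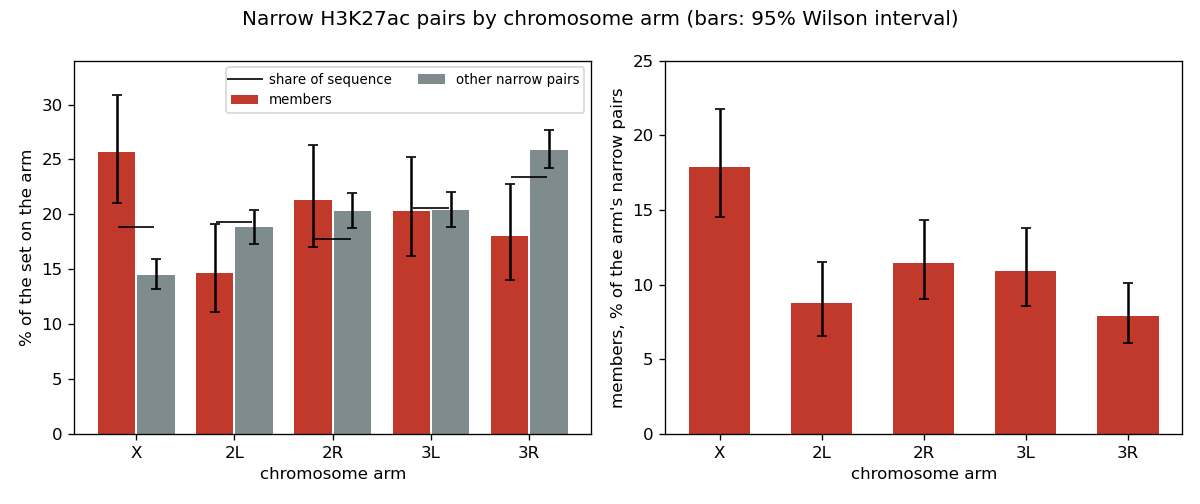
Left, percentage of the 300 members and of the 2438 other narrow pairs on each chromosome arm, with a line for the share of the arm in the sequence of all 5 arms; right, members as a percentage of the narrow pairs of each arm. Bars carry 95% Wilson intervals, and the X stands highest in both panels for members, at 25.7% and 17.9%.

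Near the centromere end of the arms, a larger part of the narrow clusters was strong. Within 2 Mb of the centromere end lay 48 of 300 members (16%, 12.3 to 20.6), against 136 of 2438 other narrow pairs (5.58%, 4.74 to 6.56). Of the 184 narrow pairs there, 26.1% (20.3 to 32.9) were members. The share of members was 15.7% from 2 to 4 Mb, 8.24% from 4 to 8 Mb, 8.74% from 8 to 16 Mb and 10.3% (8.52 to 12.4) beyond that. Over the 5 arms together, density followed the same course. There were 4.8 members per Mb in the first 2 Mb, 3.7 in the next 2, and 1.9 to 2.46 farther out. The X did not follow it, with 3.5 members per Mb in the first 2 Mb, 6 in the next 2 and 3.75 from 4 to 8 Mb. Its share of members was 25% in the first 2 Mb and 26.7% in the next 2. Narrow pairs of all 5 arms had 18.4 per Mb in the first 2 Mb and 23.1 to 23.9 elsewhere. The low density of narrow pairs in the first 2 Mb did not hold for 3R, which had 34 per Mb there and 24.5 over the whole arm.

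Each arm had a larger share of its members than of its other narrow pairs within 2 Mb of its centromere end. On 3L this was 9 of 61 members (14.8%) against 7 of 498 other pairs (1.41%), and on 2L 9 of 44 (20.5%) against 17 of 459 (3.70%). On 2R it was 13 of 64 (20.3%) against 33 of 496 (6.65%), on 3R 10 of 54 (18.5%) against 58 of 631 (9.19%), and on the X 7 of 77 (9.09%) against 21 of 354 (5.93%). The ratio of these shares was thus largest on 3L and smallest on the X, and the counts on each arm are small. On 3L members were 56.3% of the narrow pairs in that zone, though these number 16 in all (interval 33.2 to 76.9). Repeated sequence near centromeres makes reads hard to place, and its part in these scores was not tested.

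**Figure D4:**
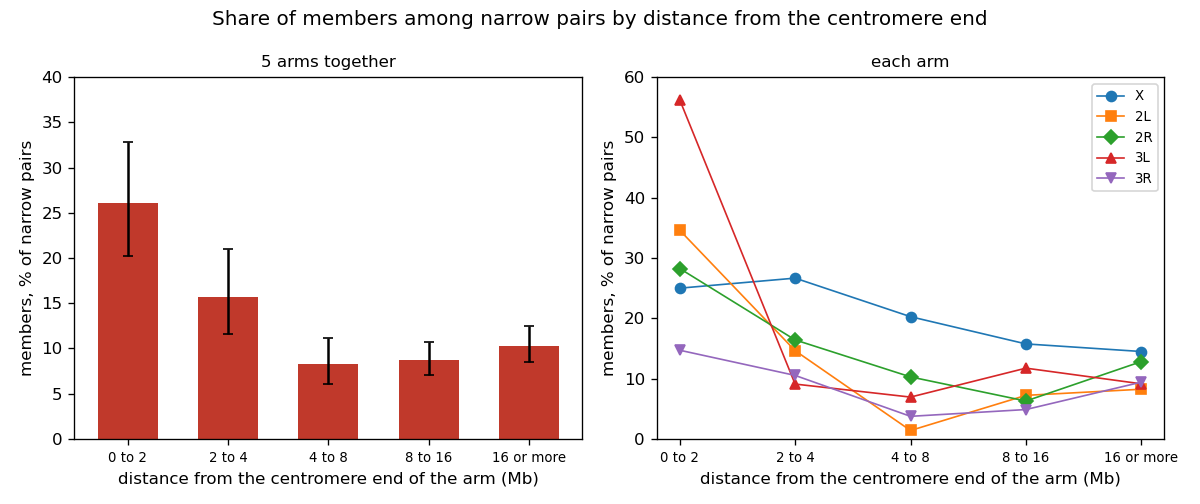
Members as a percentage of narrow pairs by distance in Mb from the centromere end, over the 5 arms together with 95% Wilson intervals (left) and for each arm (right). The share is 26.1% in the first 2 Mb and 8.24% from 4 to 8 Mb; the highest point is 56.3% on 3L.

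Members near the centromere end also stood farther from their neighbours. The gap to the nearest other cluster had a median of 6394 ± 1 bp for the 48 members within 2 Mb of the centromere end, against 2595 ± 190 bp for the 136 other narrow pairs there. The spread over regions was far wider than that between replicates. In replicate 1 the quartiles were 2084.5 and 28240 bp for these members and 723 and 7875 bp for the other pairs. Other clusters covered a median of 7.86% ± 0.14 of the 10 kb on either side of these members, against 21.4% ± 0.26 beside the other pairs. In both replicates 17 of the 48 members (35.4%, 23.4 to 49.6) were more than 20 kb from any other cluster, against 14 of the 136 other pairs (10.3%, 6.23 to 16.5). Farther out, the corresponding counts were 11 of 252 (4.37%) and 115 of 2302 (5.00%), so distant members were found mostly within 2 Mb of the centromere end.

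The arms differed in this. Within 2 Mb of the centromere end of 3L the median gap was 42.4 ± 0.1 kb for 9 members and 5.33 ± 0.22 kb for 7 other pairs. On 2L it was 20.1 ± 0.18 kb for 9 members and 4.44 ± 0.05 kb for 17 other pairs, and on 2R 13.9 ± 0.07 kb for 13 members and 5.24 ± 0.03 kb for 33. On 3R, with 10 members and 58 other pairs, the gaps were 2.1 ± 0.08 kb and 1.76 ± 0.04 kb, and on the X, with 7 and 21, they were 3.06 ± 0.22 kb and 1.94 ± 0.17 kb. None of the members more than 20 kb from any cluster in this zone was on 3R or the X. Since 3R gave 58 of the 136 other pairs and 10 of the 48 members, it was left out once, a choice made, like the split of gaps by distance, after the values were seen. Without it the median gap was 13.1 ± 0.01 kb for members and 3.27 ± 0.15 kb for other pairs. The covered share within 10 kb was then 0% in both replicates beside members and 17.0% ± 1.31 beside other pairs.

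The most isolated member lay at the centromere end of 3L, from 24529509 to 24532089, 11.5 kb from the end of the arm. It scored 1.43 and 1.56, was 2586 and 2639 bp wide, and had no other cluster within 460734 bp in replicate 1 and 460527 bp in replicate 2, on the one side where the arm goes on. Next came a member at the opposite end of 2R, from 21076405 to 21079266, with scores of 1.04 and 1.34 and a gap of 103606 and 103637 bp. Its gap too was measured on 1 side only, since no cluster lay between it and the end of the arm. The other 3 of the 5 most isolated were 3L from 16486864 to 16489723 (scores 1.18 and 1.11, at least 73995 bp from any cluster), 3L from 439515 to 443009 (1.34 and 1.32, 61516 bp) and 2L from 22873706 to 22876902 (1.53 and 1.60, 54777 bp). The last of these lay 135 kb from the centromere end. Isolation at this scale was therefore not confined to the centromere ends.

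Over all arms, members differed little from other narrow pairs in how close the next cluster was. The median gap to the nearest other cluster of any width was 2593 ± 303 bp for members and 2545 ± 37 bp for the other narrow pairs. The difference is smaller than the spread between replicates, and its sign differed between them, at 2379 against 2519 bp in replicate 1 and 2808 against 2571 bp in replicate 2. On the side away from that neighbour the median gap was 12459 ± 68 bp for members and 13298 ± 33 bp for other pairs. No other cluster lay within 10 kb for 50 members (16.7%) in each replicate, against 404 other pairs (16.6%) in replicate 1 and 390 (16%) in replicate 2. A neighbour within 1 kb was present in both replicates for 54 members (18.0%) and 438 other pairs (18.0%).

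The flanks of members, taken over all arms, were covered slightly more within 10 kb and alike within 50 kb, but this joined opposite differences near the centromere and away from it. Other clusters covered a median of 25.7% ± 0.42 of the 10 kb on either side of members and 23.3% ± 0.31 beside other pairs. Within 50 kb the medians were 26.4% ± 0.14 and 26.5% ± 0.12. Farther than 2 Mb from the centromere end, members had 28.8% ± 1.39 and other pairs 23.5% ± 0.39 within 10 kb, and 29.7% ± 0.34 and 26.7% ± 0.18 within 50 kb. Within 2 Mb of it the 50 kb flanks had 9.42% ± 0.39 beside members and 21.3% ± 0.34 beside other pairs, the reverse order. A domain of 10 kb or more lay within 10 kb of 47 members (15.7%) in replicate 1 and 46 (15.3%) in replicate 2, against 359 (14.7%) and 332 (13.6%) of the other pairs. Across narrow pairs, rho between score and gap was -0.03 in replicate 1 and 0.01 in replicate 2, and between score and covered flank 0.06 and 0.002. Over all narrow pairs together, score thus had almost no rank relation to how close the neighbours were. These rho values were not computed separately within and beyond 2 Mb of the centromere end, where the flanks differed in opposite directions.

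**Figure D5:**
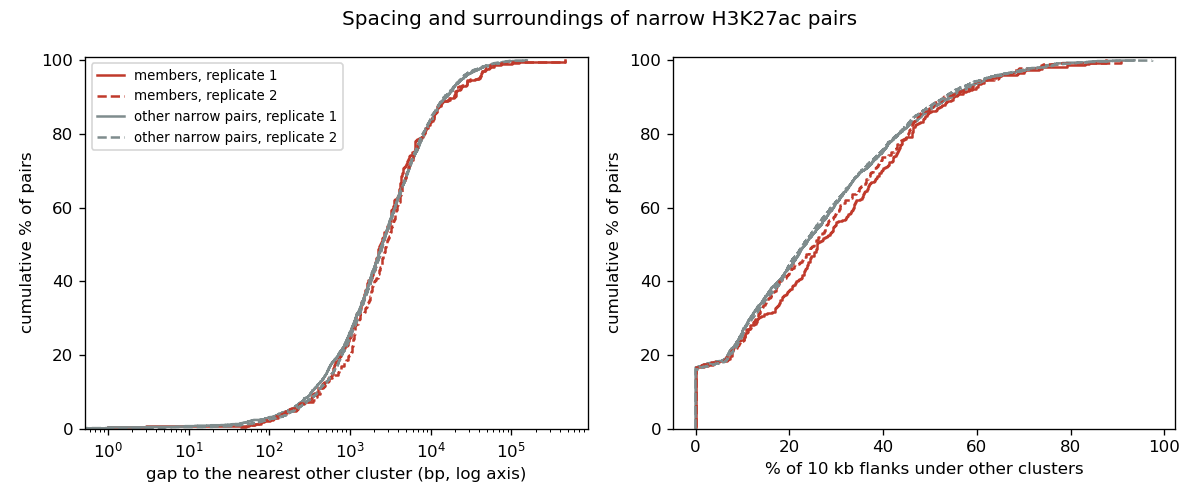
Cumulative percentage of pairs by the gap in bp to the nearest other cluster (left, log axis) and by the percentage of the 10 kb on either side that lies under other clusters (right), for members and other narrow pairs in each replicate. The curves of the gap nearly coincide, with medians of 2593 bp for members and 2545 bp for other pairs.

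The nearest neighbours of members scored higher than those of other narrow pairs on the autosome arms. Their median score was 0.91 ± 0.05 beside members and 0.78 ± 0.03 beside other pairs. On the X the medians were 0.98 ± 0.08 and 1.01 ± 0.04, closer than the spread between replicates. Even so, a member outscored its nearest neighbour in 232 of 300 cases in replicate 1 (77.3%) and 230 in replicate 2 (76.7%), which the choice by score favours. It was wider than that neighbour in 149 cases (49.7%) and 155 (51.7%). The neighbours of members had a median width of 2970 ± 131 bp, against 2931 ± 33 bp beside other pairs.

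The 5 most crowded members had other clusters over most of the 10 kb on either side. The first pair of them, on 3R from 20405540 to 20409450 (scores 1.69 and 1.42) and from 20410355 to 20413130 (1.25 and 1.16), were each other's neighbours and had 89.1% ± 2.29 of their flanks covered. The others were the X from 6581518 to 6583922 (78.6% ± 6.40), 2L from 7031763 to 7035462 (76.4% ± 4.00) and the X from 1761571 to 1764202 (75.4% ± 2.99). At the X region from 6581518 the width differed between replicates, at 3745 and 2405 bp, while the other 4 differed by at most 147 bp. When clusters of a list closer than 500 bp were joined, 248 of the 300 members (82.7%) and 2004 of the 2438 other pairs (82.2%) remained as separate regions under 4000 bp.

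Members were mostly far from one another. The median distance from a member to the nearest other member was 86074 ± 91 bp, and it was shorter on the X, at 31597 ± 88 bp, than over the autosome arms, at 94386 ± 29 bp. By arm it was about 72 kb on 3L (71960 bp in replicate 1), 97 kb on 2R (96762 bp), 105 kb on 2L (104623 bp) and 130 kb on 3R (130438 bp). Such distances shrink as members become more numerous, but their order was not that of the counts per megabase, in which 2R came before 3L and 3R before 2L. Since the other narrow pairs are far more numerous, their own spacing (9633 ± 315 bp) is no measure against which to read it.

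Joined by gaps under 10 kb, 47 members (15.7%) fell into 21 runs, of which 5 held 3 members and the rest a pair. Of the runs of 3, the tightest was on 3L from 11676193 to 11690640, with 3 members in 14448 bp and mean scores of 1.15 to 1.23. On 3L from 12507181 to 12524438 there were 3 in 17258 bp (1.20 to 1.53), and from 21499489 to 21518766 there were 3 in 19278 bp (1.17 to 1.56). 3L thus held the 3 tightest runs of 3 members, though runs of a pair were shorter, down to 5330 bp on 3L from 11614926 to 11620255. The X held the remaining runs of 3, from 22396592 to 22416478, where the eighth member lies beside the centromere end, and from 17782688 to 17803125.

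Windows of 1 Mb were laid along each arm, the last of each arm being shorter. That of 2L, from 23000001 to 23011544, held no narrow pair. Of all 122 windows, 18 held no member, 70 held 1 to 3, and 7 held 6 or 7. Among the latter were all 3 windows in the first 3 Mb of 2R at its centromere end, with 7, 6 and 7 members among 17, 29 and 28 narrow pairs. The others were the X from 6000001 to 7000000 (7 of 23 narrow pairs), the X from 19000001 to 20000000 (6 of 25), 3L from 11000001 to 12000000 (7 of 30) and 3R from 1000001 to 2000000 (6 of 39). At the other extreme, 2L had a stretch of 4.78 Mb without a member, from 13905538 to 18687695, though 76 other narrow pairs lay within it. It was followed in length by 2.91 Mb on 3R from 8257919 to 11169998, with 67 other narrow pairs. The next, 2.37 Mb on 2L from 11528831 to 13902663 with 48 other pairs, adjoined the first. The member between them, on 2L from 13902664 to 13905537, ranked at 25 with scores of 1.51 and 1.55 and widths of 2891 and 2884 bp. It had other clusters 6324 and 6923 bp away, so it was remote from members and not from clusters. These windows, stretches and this member were chosen after their values were seen.

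The replicate-set list, which the choice of members did not use but which comes from the same libraries, held all 300 members and 2437 of the 2438 other narrow pairs. The cluster of that list at a member had a median width of 3444 bp and a median score of 1.21, against 2844 bp and 0.60 at other pairs. It reached 4000 bp for 57 members (19.0%, 15.0 to 23.8) and 485 other pairs (19.9%, 18.4 to 21.5), and 10 kb for 11 (3.67%) and 103 (4.22%). With 1 replicate left out, and members chosen from the other list alone, the share at 4000 bp was 35% for members and 27.4% for other pairs without replicate 1, and 31% and 27.6% without replicate 2. No pair of members shared a cluster of that list. Among pairs with mean widths of 3000 bp or more the shares at 4000 bp were 23.0% for members and 41.3% for other pairs.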

How the data were processed

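Bowtie 0.12.7 is named in the submitters' processing notes. Lists of enriched clusters were deposited by the authors for ChIP replicate 1, ChIP replicate 2 and the replicate set. Per the labels, input 1 served for replicate 1 and input 2 for replicate 2, and the inputs were used here only in that way. Neither the caller nor its thresholds nor the way replicates were pooled is given in the sources used here. Library depth, which can alter the number and width of called clusters, is unknown. The file headers give FlyBase release 5 as the genome, along with the arm lengths used here. The scores the authors deposited were read as log2 values: 2 raised to score differences gave ratios of whole numbers (denominators up to 20000, relative tolerance 1e-12) for 100% of clusters in both replicate lists and 91.9% in the replicate set, against at most 0.44% with base e or 10. Which quantities form the ratio is likewise unstated.

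A gap is the number of bases between a cluster and the next in the same list, of any width. The covered flank is the share of bases under other clusters within 10 kb or 50 kb of each border, within the arm. Coordinates of a pair are those shared by both replicates. The centromere end is the high-coordinate end of 2L, 3L and the X and the low-coordinate end of 2R and 3R. Distances to it are counted from the end of the arm sequence and not from the centromere itself. Named regions were the 10 of highest mean score, the 5 narrowest, the 5 with the largest gap, the 5 with the most covered flanks, the 3 tightest runs, and the 3 on each side of the limit. The members, lists and measures were chosen with earlier results of these data known. Of the other narrow pairs, 22 shared their replicate 2 cluster with another pair; no members did. Functions for gaps, flanks, matching and joining were tested on simulated data. The tools were numpy 2.4.6 and pandas 2.3.3 for all measures, scipy 1.17.1 for intervals and rank correlations, and matplotlib 3.10.9 for figures, under Python 3.11.15.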

Additional observations from a re-analysis of the deposited data

How the results depend on the processing

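Members stayed above the other narrow pairs under all alternatives run for the share on the X (12) and the share within 2 Mb of the centromere end (13), and below them for the border difference (12). The choice by score and the number of members fix the order of the widths and of the distance to the nearest member, which are given as values only. The order turned for the gap to the nearest cluster in 6 of 14, for a wider replicate-set cluster in 7 of 14 and for a nearby domain in 3 of 14; the cause was not tested. The covered flank kept its order in 14 of 15, turning only with flanks of 50 kb in place of 10 kb. The share on the X was 17.3% when ranked relative to the arm median, and 25.7% to 30.7% with 1 replicate left out. The share within 2 Mb of the centromere end was 10% with a limit of 3000 bp, 21.3% for 150 members and 9.09% on the X alone, and 15.7% to 17% with 1 replicate left out. The median width was 2598 bp with a limit of 3000 bp, 3703 bp with 5000 bp, 3234 bp for 150 members, 3016 bp for 600 members, 3418 bp among widths of 3000 bp or more and 3007 bp on the X, and 3240 to 3280 bp with 1 replicate left out. The median gap was 3199 bp for 150 members, 3271 bp with clusters closer than 500 bp joined and 2234 bp on the X, and 2283 to 2574 bp with 1 replicate left out. The covered flank was 27.5% with a limit of 5000 bp, 25% by the lower score or relative to the arm median, 22.9% with clusters joined, 28.6% without 2 Mb at the centromere ends, 28.5% on the X, 25.2% on the autosome arms and 26.4% within 50 kb, and 25.6% to 28.8% with 1 replicate left out. The share of members near a domain was 13% with a limit of 5000 bp, 14.7% for 150 members, 14.9% for 600, 15.8% relative to the arm median, 16.5% with clusters joined, 17.3% without the centromere ends, 16.9% among widths of 3000 bp or more, 19.5% on the X and 14.1% on the autosome arms, and 13.7% to 18.3% with 1 replicate left out. The distance to the nearest member was 101408 bp with a limit of 3000 bp, 94558 bp with 5000 bp, 186036 bp for 150 members, 43659 bp for 600, 78955 bp by the lower score, 95573 bp relative to the arm median, 87065 bp with clusters joined, 76976 bp without the centromere ends, 232002 bp among widths of 3000 bp or more, 31597 bp on the X and 94386 bp on the autosome arms, and 88154 to 88954 bp with 1 replicate left out. The border difference was 68.5 bp with a limit of 3000 bp, 75 bp with 5000 bp, 64 bp for 150 members, 78.5 bp for 600, 68.5 bp with clusters joined, 75 bp without the centromere ends, 73.5 bp among widths of 3000 bp or more, 102 bp on the X and 61 bp on the autosome arms. The share of members in a wider replicate-set cluster was 9% with a limit of 3000 bp, 54% with 5000 bp, 14% with clusters joined and 29.9% on the X, and 31% to 35% with 1 replicate left out. The width limits set that last share in part, since it counts clusters of 4000 bp or more. Requiring 50% of both clusters to be shared left all 9 values of members unchanged, so it did not put them to a test. Values of the other pairs changed. Their share in a wider replicate-set cluster was then 18.1%, against 19% for members, where the order turned. No paired analysis was possible because no result compares ChIP with input libraries: the inputs, which bear the same numbers, have no values of their own in the cluster lists. The effect of library depth was not tested.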
